A study of Mus musculus with 6 samples.

Results

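The endothelial identity genes are 10 genes whose products mark the cell layer that lines blood vessels. They were listed by name with earlier results of these data known, although no measured value enters the rule, and they are Pecam1, Cdh5, Vwf, Tek, Tie1, Esam, Cldn5, Emcn, Egfl7 and Eng. All 10 were found among the 55335 genes of the count table, and all 10 were among the 16612 genes that passed the filter on low counts and were tested. Bulk RNA sequencing was performed on aorta of wild-type C57BL/6 mice, written c57b6l in the labels, and the study describes all of them as male. The young group held 3 mice aged 6 weeks and the aged group 3 mice aged 6 months, with no other treatment or allele in either group and 1 library for each mouse. The study describes that fat around the vessel was dissected away and a short piece of vessel was frozen. It describes no step that separated the layers of the wall, and does not report how much of each entered a library. Despite the dissection, transcripts of adipocyte genes were read in each library, at unequal levels that are given below.

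The endothelium forms a single layer between blood and the muscular wall. Its cells hold on to each other through VE-cadherin, PECAM-1, ESAM and claudin-5, store von Willebrand factor for release at an injury, and stay quiescent through signals of the receptors TIE2 and TIE1. In the aorta these cells are a small share of the wall beside smooth muscle cells and fibroblasts, so their transcripts are read against a large background of other RNA. In whole tissue, fewer cells of a type and less RNA in each cell cannot be told apart.

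Some sequences of these genes are shown so that the loci behind the values can be seen. Windows of 300 bases around start sites annotated in RefSeq were taken on GRCm38.p6, and 8 windows were found for 6 of the 10 genes (Tek, Tie1, Cldn5, Emcn, Egfl7 and Eng). The windows of Tie1 and Tek are given since these receptors stood far apart in 1 aged library, that of Eng since it stood apart least, and that of Emcn since its age groups did not overlap. Capitals mark the letters AGGAAG or CGGAAG on either strand, the core read by ETS factors, a transcription factor family with ERG and FLI1 among its endothelial members. Each is written along the strand of its gene, at chr4:118489800-118490099 (minus strand) for Tie1, whose RefSeq start lies inside the gene as GENCODE draws it, chr4:94739039-94739338 (plus strand) for Tek, chr2:32646345-32646644 (plus strand) for Eng and chr3:137340828-137341127 (plus strand) for Emcn. The mature form of miR-126a, at chr2:26591402-26591423 (plus strand) inside Egfl7, is given with its seed in capitals, since endothelial cells make this miRNA from the same locus.
Tie1: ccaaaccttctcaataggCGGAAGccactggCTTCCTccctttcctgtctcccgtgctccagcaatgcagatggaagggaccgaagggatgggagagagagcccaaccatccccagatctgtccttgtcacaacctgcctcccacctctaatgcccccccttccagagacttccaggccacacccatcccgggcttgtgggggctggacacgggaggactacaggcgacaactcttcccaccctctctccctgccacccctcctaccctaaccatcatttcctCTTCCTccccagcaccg
Tek: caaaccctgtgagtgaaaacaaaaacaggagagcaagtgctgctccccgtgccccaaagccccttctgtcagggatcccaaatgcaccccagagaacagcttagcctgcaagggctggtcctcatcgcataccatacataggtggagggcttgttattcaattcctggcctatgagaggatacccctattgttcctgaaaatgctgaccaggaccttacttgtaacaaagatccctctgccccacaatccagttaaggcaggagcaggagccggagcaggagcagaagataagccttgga
Eng: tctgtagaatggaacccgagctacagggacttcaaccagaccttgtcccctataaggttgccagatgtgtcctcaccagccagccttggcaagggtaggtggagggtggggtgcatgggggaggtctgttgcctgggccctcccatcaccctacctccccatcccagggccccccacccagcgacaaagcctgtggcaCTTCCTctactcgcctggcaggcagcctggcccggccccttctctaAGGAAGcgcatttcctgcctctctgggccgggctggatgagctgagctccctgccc
Emcn: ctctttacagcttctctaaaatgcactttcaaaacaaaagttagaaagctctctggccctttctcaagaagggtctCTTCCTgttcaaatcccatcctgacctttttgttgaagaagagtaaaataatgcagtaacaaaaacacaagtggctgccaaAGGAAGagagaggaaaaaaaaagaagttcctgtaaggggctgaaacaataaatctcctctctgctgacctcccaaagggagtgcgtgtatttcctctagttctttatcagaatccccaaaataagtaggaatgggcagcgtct
mmu-miR-126a-3p: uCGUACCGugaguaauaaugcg

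AGGAAG was found on either strand in 5 of the 8 windows, against 35.4% of 32851 promoter windows of the same length. CGGAAG was found in 1 window, that of Tie1, against 16.9% of all windows. The Tek window held neither, but it held AGATAA, the core of GATA factors, which 11.2% of all windows hold. CACCC, read by Krüppel-like factors, was in 5 of the 8 windows and in 57.5% of all. None of the 4 strings contains another, and 3 of the 8 windows belong to Egfl7, all of them inside the gene as GENCODE draws it. A match of letters is a description and was not tied to any expression value. The row of the miRNA gene Mir126a held 0 or 1 counts in each library, which says nothing about the mature miRNA in libraries made from mRNA.

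Total counts lay between 31049632 and 45832185 per library, so each of the identity genes was read well above the limits of counting, from 216 counts for Emcn in young replicate 3 to 24581 for Pecam1 in aged replicate 3. Young replicate 1 and aged replicates 2 and 3 stood apart and results are given with and without them. Young replicate 1 went against the male sex that the study states. Levels are given in CPM, a count divided by the effective size of its library, which TMM normalization sets. Xist, the female-specific RNA, was at 305.6 CPM in young replicate 1, against 0.204 to 0.636 in the other libraries. The Y-linked gene Ddx3y was at 1.09 CPM there, against 44.8 to 65.6 in the others. Aged replicate 2 lay among the young libraries on the first principal component, at -13.4 where the other aged libraries were at 62.7 and 53.8. Aged replicate 3 stood apart in the identity genes themselves, as described next. It also held the largest share of counts from the mitochondrial genome, 30.4%. This share was 23.1% and 26.7% in aged replicates 1 and 2 and 14.9 to 21.2% in the young libraries, so the age groups did not overlap. Defining markers of aorta were present throughout, with Acta2, the actin of smooth muscle, at 12229 CPM or above in every library.

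The question of the comparison was whether endothelial transcripts in the aorta differ between 6 weeks and 6 months. None of the 10 genes passed at 0.05 in the quasi-likelihood test of edgeR, adjusted by Benjamini and Hochberg, and of all 16612 genes 0 passed (0% called). At an unadjusted p under 0.05 edgeR gave 1 of the 10, Emcn, against 10.4% of all genes in either direction, and DESeq2 called 0 of the 10 and 338 of all genes by adjusted p. All 10 fitted log2 fold changes of aged over young were above 0, with a median of 0.71, beside 0.02 for all genes tested. The same 10 genes had their highest value of all 6 libraries in aged replicate 3, whereas 15.1% of all genes did. In 9 of the 10 that value was at least 1.5 times the next library, against 3.17% of all genes. Without aged replicate 3, 7 of the 10 fold changes were below 0 and the median was -0.18. All 10 stayed above 0 without young replicate 1 (median 0.89) and without aged replicate 2 (median 0.99). The library was singled out after its values were seen.

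**Figure D1:**
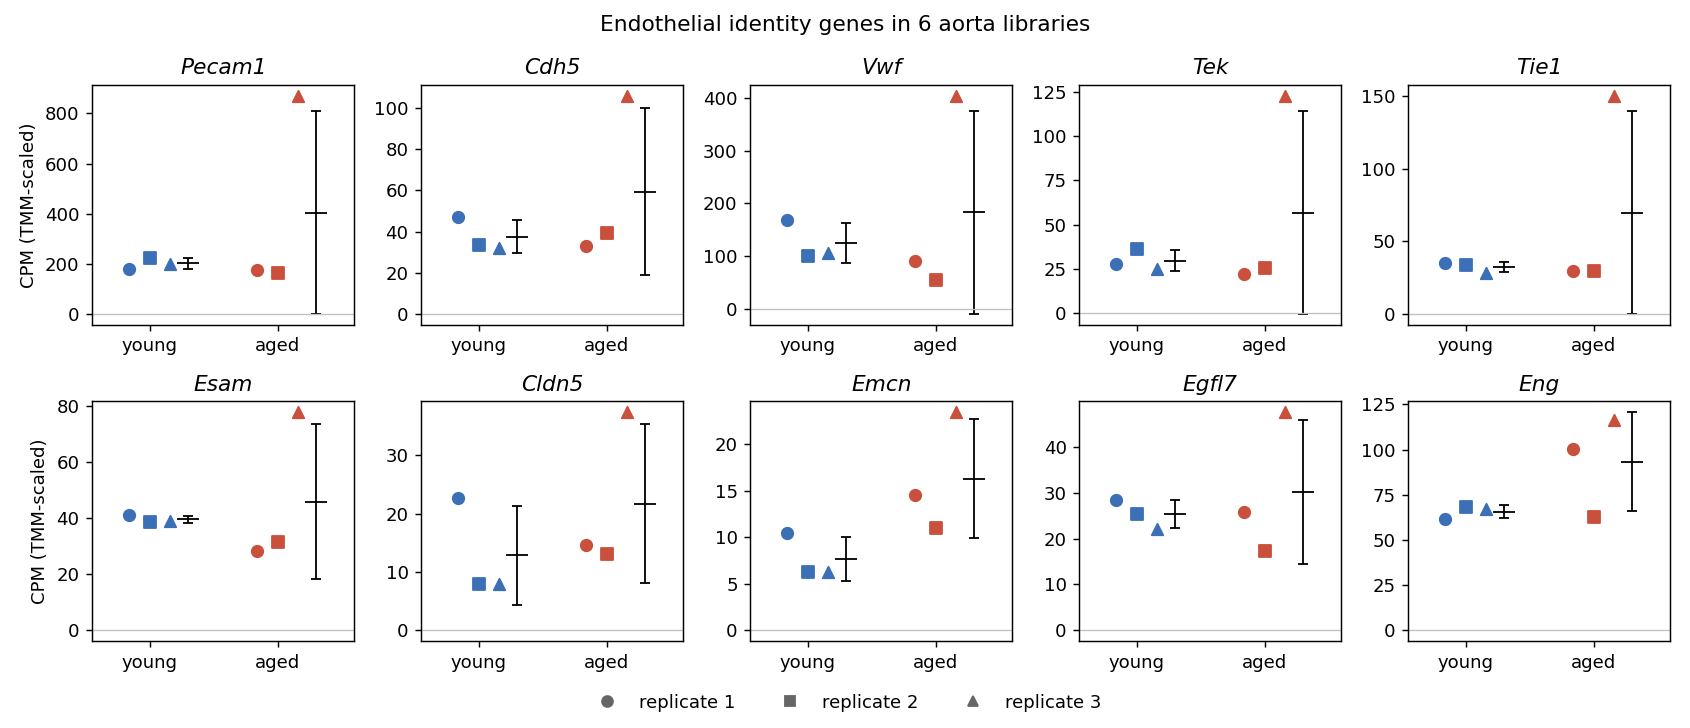
Level of each endothelial identity gene in TMM-scaled CPM (vertical axis, linear, a separate scale for each gene) in the young and the aged libraries, with 1 point for each library and a horizontal mark with bars for the mean ± SD (n = 3). The triangle of aged replicate 3 is the highest point in all 10 panels, and the aged groups lie wholly above the young group only for Emcn.

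Pecam1, the adhesion molecule CD31 at contacts between endothelial cells, lies at chr11:106654217-106750628 on the minus strand of GRCm38 and has 17 merged exons. Its level was 180.75, 225.4 and 201.2 CPM in the young libraries and 178.2, 166.6 and 869.9 in the aged ones. Aged replicates 1 and 2 were the lowest of all 6 libraries and aged replicate 3 was the highest, 3.86 times the next. The group means were 202 ± 22.4 and 405 ± 403 CPM (SD, n = 3 each), with a log2 fold change of 1.00 (SE 0.62) and an adjusted p of 0.603 (edgeR). Without aged replicate 3 the log2 fold change was -0.23.

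Cdh5 encodes VE-cadherin, the cadherin of the endothelial adherens junction, at chr8:104101625-104144511 on the plus strand. It was at 46.8, 33.5 and 32.1 CPM in young and 32.7, 39.3 and 106 CPM in aged aorta. Apart from aged replicate 3, the highest library was young replicate 1, and the age groups overlapped. Its log2 fold change was 0.66 (SE 0.44, edgeR adjusted p 0.625) and was -0.056 without aged replicate 3.

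Esam, an immunoglobulin-like molecule of tight junctions at chr9:37528078-37538319 on the plus strand, was at 41.1, 38.9 and 39.2 CPM in young aorta. This was the narrowest young spread of the set, 39.7 ± 1.20 CPM (SD, n = 3). In aged aorta it was at 28.5, 31.4 and 77.9 CPM, so that aged replicates 1 and 2 lay below and aged replicate 3 above every young library. The log2 fold change of 0.21 (SE 0.38, edgeR adjusted p 0.859) averaged values on both sides of the young range. Without aged replicate 3 it was -0.41, with an unadjusted p of 0.0499 and an adjusted p of 0.689 by edgeR. In that fit 1244 of 17445 genes had an unadjusted p under 0.05, and the library was picked after its values were seen.

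Cldn5, the claudin that seals endothelial tight junctions, is a gene of 1 exon at chr16:18776847-18778262 on the plus strand. Its level was 22.7, 7.93 and 8.01 CPM in young and 14.7, 13.2 and 37.4 CPM in aged aorta. Young replicate 1, the library that went against the sex stated by the study, was above aged replicates 1 and 2. The other young libraries were below all 3 aged ones. The log2 fold change was 0.75 (SE 0.56, edgeR adjusted p 0.654). It was 1.46 without young replicate 1 (unadjusted p 0.0279, adjusted p 0.402 by edgeR) and 0.11 without aged replicate 3. In the fit without young replicate 1, 1952 of 17259 genes had an unadjusted p under 0.05.

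Among the genes of adhesion partners, the list of junction partners held 20 genes of catenins, nectins, JAM proteins and claudin-binding scaffolds, all of them tested. None passed by adjusted p, 0 had an unadjusted p under 0.05 with a higher aged value and 3 with a lower one, beside 5.56% and 4.82% of all genes. Their median log2 fold change was -0.10. Highest in aged replicate 3 by at least 1.5-fold were 2 of the 20, F11r and Jam2, both of the JAM family and named after their values were seen. Ctnnb1, the β-catenin that binds cadherins in many cell types, was between 421 and 533 CPM in all 6 libraries. Ctnnd1, the p120-catenin that holds cadherins at the surface, was at 131, 113 and 168 CPM in young and 94.4, 97.2 and 102 CPM in aged aorta, without overlap (log2 fold change -0.49, edgeR adjusted p 0.443). Tln1, encoding talin, which links integrins to actin, was at 632, 622 and 787 CPM in young and 469, 483 and 476 CPM in aged aorta. The Tln1 groups did not overlap, as those of 8.78% of all genes did with aged lower, and its adjusted p was 0.390 (edgeR).

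Tek encodes TIE2, the receptor of the angiopoietins, at chr4:94739289-94874976 on the plus strand. Its level was 27.7, 36.1 and 24.9 CPM in young and 22.2, 25.1 and 123 CPM in aged aorta. The library of aged replicate 3 had 3.41 times the next value, and the others overlapped. With all libraries its log2 fold change was 0.94 (SE 0.64, edgeR adjusted p 0.632), and it was -0.32 without aged replicate 3.

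Tie1, the partner receptor of TIE2 that binds no angiopoietin by itself with high affinity, lies at chr4:118471191-118490061 on the minus strand. It was at 34.7, 33.6 and 28.2 CPM in young and 29.4, 29.5 and 150 CPM in aged aorta. The 5 libraries other than aged replicate 3 thus lay in a narrow band, and aged replicate 3 was 4.32 times the highest of them, the widest gap among the 10 genes. The log2 fold change of 1.11 (SE 0.63, edgeR adjusted p 0.572) was -0.13 without that library.

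The ligands and partners of these receptors were read as a list of 10 genes, all tested. Of these 1, Ptprb, was highest in aged replicate 3. Ptprb encodes the phosphatase VE-PTP that acts on TIE2, and it was at 14.4, 15.3 and 63.8 CPM in young and 54.7, 35.3 and 253 CPM in aged aorta (named after its values were seen). Angpt2, the angiopoietin that endothelial cells release to oppose TIE2 signalling, was at 125, 63.6 and 79.8 CPM in young and 83.9, 41.8 and 42.6 CPM in aged aorta (log2 fold change -0.67, SE 0.36, edgeR adjusted p 0.549). Angpt4, another ligand of TIE2, was at 5.14, 5.69 and 5.36 CPM in young and 25.3, 9.28 and 17.6 CPM in aged aorta. Its groups did not overlap, with aged replicate 1 the highest, and the log2 fold change was 1.69 (SE 0.36). Its adjusted p was 0.360 by edgeR, and it was among the genes that DESeq2 called. Pik3r1, a subunit of the PI3-kinase that TIE2 engages, was at 0.49 on the log2 fold change scale (edgeR adjusted p 0.379). Itga5, an integrin that can bind angiopoietins, was the most abundant gene of the list and was highest in aged replicate 2, at 834 CPM (log2 fold change 0.64, edgeR adjusted p 0.580). In the whole list 2 genes had an unadjusted p under 0.05 with higher aged values and 0 with lower, beside 5.56% and 4.82% of all genes, and the median log2 fold change was 0.57.

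**Figure D2:**
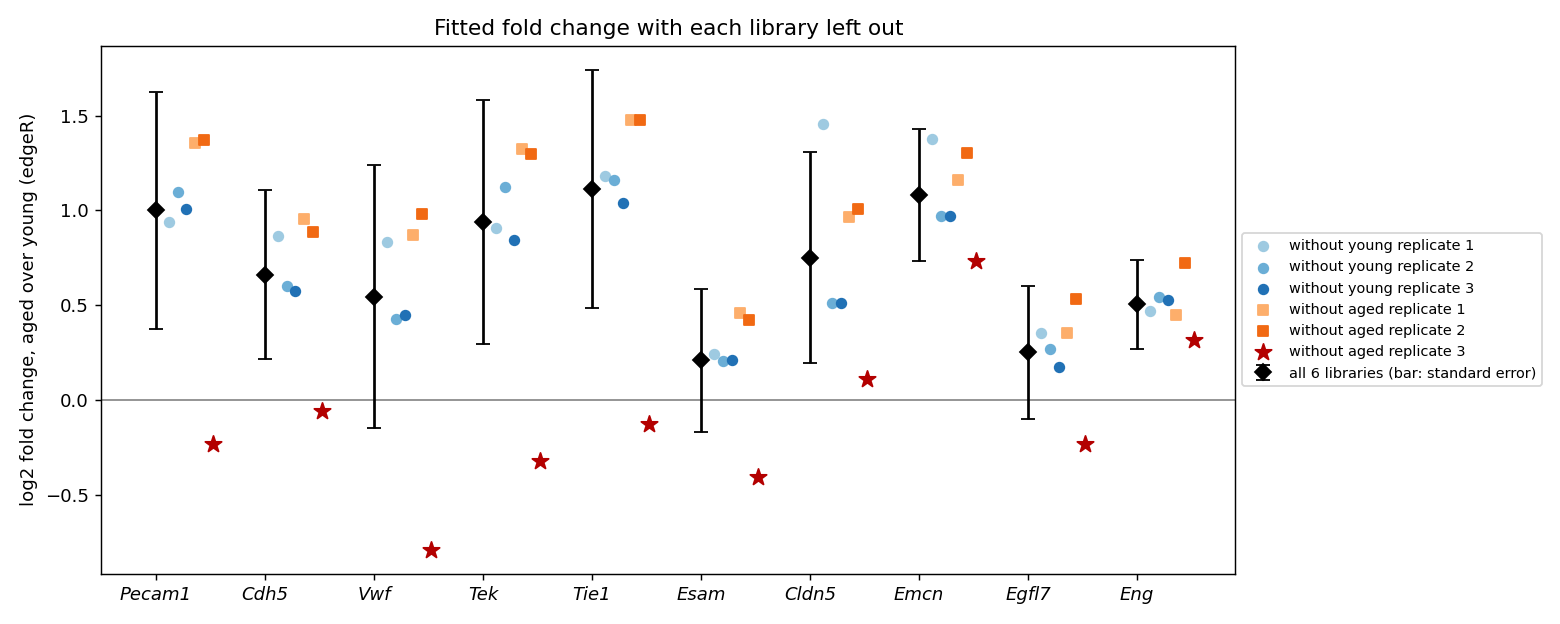
Log2 fold change of aged over young aorta fitted by edgeR for each identity gene (vertical axis), with all 6 libraries (black diamonds, bars show the standard error) and with each library left out in turn (coloured points). The red stars, without aged replicate 3, are the lowest value for each of the 10 genes and lie below 0 for 7 of them.

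Vwf encodes von Willebrand factor, the platelet-binding protein kept in Weibel-Palade bodies, at chr6:125546774-125686679 on the plus strand, with 56 merged exons. It was at 169.5, 101.3 and 105.6 CPM in young and 90.8, 54.4 and 404 CPM in aged aorta. Aged replicates 1 and 2 were below every young library and aged replicate 3 was 2.38 times the highest of them. Its log2 fold change was 0.54 (SE 0.69, edgeR adjusted p 0.798), and it was -0.79 without aged replicate 3 (unadjusted p 0.0566), the furthest below 0 of the set. Vwf was one of 3 genes, with Esam and Egfl7, whose sign also turned when log2 FPKM was fitted with limma, to -0.10 with a pseudocount of 1, a scale on which the median of all genes was at -0.12.

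The list of Weibel-Palade body and von Willebrand factor partners held 13 genes, of which 12 were tested; Adamts13, the protease that trims the factor and is made mainly in liver, was at 0 counts in every library. None was called and the median log2 fold change was -0.07. No gene of this list had groups that did not overlap, beside 16.5% of all genes in either direction. Edn1, the precursor of the vasoconstrictor endothelin-1, was at 18.4, 5.06 and 9.73 CPM in young and 3.73, 2.33 and 6.41 CPM in aged aorta. The Edn1 groups overlapped, since aged replicate 3 lay above young replicate 2 (log2 fold change -1.42, SE 0.54, edgeR adjusted p 0.448). Ece1, the enzyme that activates endothelin, was between 86.7 and 104 CPM in 5 libraries and at 254 CPM in aged replicate 3. Cd63, a membrane protein of these granules and of lysosomes in most cells, was at 190, 164 and 167 CPM in young and 352, 190 and 265 CPM in aged aorta (edgeR adjusted p 0.445). Selp, the P-selectin that the granules carry to the surface, was named after its values were seen. It was between 3.13 and 6.77 CPM in 5 libraries and at 25.3 CPM in aged replicate 3.

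Eng encodes endoglin, a co-receptor for BMP9 and TGF-β, at chr2:32646595-32682669 on the plus strand. Its level was 61.7, 68.5 and 67.0 CPM in young and 100.4, 62.9 and 116.3 CPM in aged aorta. Aged replicates 1 and 3 were both above all young libraries, and aged replicate 2 lay within the young range. Eng was the exception among the 10 genes in aged replicate 3, where it was 1.16 times the next library. The log2 fold change was 0.50 (SE 0.23), the unadjusted p 0.0671 and the adjusted p 0.511 (edgeR), and without aged replicate 3 the fold change stayed above 0 at 0.32. An exact two-sided permutation test of the 3 against 3 values gave p = 0.3, where 0.1 is the smallest the design allows.

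The endoglin and BMP9 list held 17 genes, 15 of them tested. Of the ligands that were not tested, Bmp10 had 0 counts in every library and Gdf2, which encodes BMP9, had at most 47. By adjusted p edgeR called 0 genes, while DESeq2 called Tmem100. In edgeR 2 had an unadjusted p under 0.05 with higher aged values and 2 with lower ones, beside 5.56% and 4.82% of all genes. The median log2 fold change was -0.20. Acvrl1, the receptor ALK1 that binds BMP9 beside endoglin, was named after its values were seen. It was at 56.3, 38.5 and 58.3 CPM in young and 85.0, 62.5 and 110 CPM in aged aorta, with no overlap and an adjusted p of 0.415 (edgeR). Tmem100, a membrane protein downstream of ALK1, was at 4.83, 6.55 and 4.43 CPM in young and 21.2, 6.60 and 22.1 CPM in aged aorta (log2 fold change 1.66, SE 0.46, edgeR adjusted p 0.377). Id2, an inhibitor of basic helix-loop-helix factors that BMP signals induce, was at 198, 207 and 156 CPM in young and 135, 114 and 103 CPM in aged aorta. Its log2 fold change was -0.67 (SE 0.18, edgeR adjusted p 0.377), opposite in sign to those of Tmem100 and Acvrl1. The related Id3 overlapped between the ages, with a log2 fold change of -0.28 and an edgeR adjusted p of 0.692. None of the 15 tested genes was highest in aged replicate 3 by 1.5-fold or more.

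Emcn encodes endomucin, a sialomucin on capillary and venous endothelium, at chr3:137341067-137432185 on the plus strand. It was at 10.4, 6.32 and 6.29 CPM in young and 14.6, 10.97 and 23.4 CPM in aged aorta. All 3 aged libraries were above all 3 young ones, which was the case for 1 of the 10 identity genes and for 7.74% of all genes tested. The log2 fold change was 1.08 (SE 0.35), with an unadjusted p of 0.0162 and an adjusted p of 0.395 by edgeR, and the exact two-sided permutation p was 0.1, the smallest that 3 against 3 can give. It was 0.73 without aged replicate 3 and 1.38 without young replicate 1, so the sign did not depend on either library.

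Egfl7, a secreted protein of the vessel matrix and host of the miRNA shown above, lies at chr2:26580014-26593120 on the plus strand. Its level was 28.4, 25.5 and 22.1 CPM in young and 25.8, 17.2 and 47.5 CPM in aged aorta. Aged replicate 2 was the lowest and aged replicate 3 the highest library, 1.68 times the next. Aged over young, its log2 fold change was 0.25 (SE 0.35, edgeR adjusted p 0.815), and it was -0.23 without aged replicate 3. Exons of Cdh5 overlap those of the antisense gene Gm29682 over 108 bases, and exons of Egfl7 overlap those of Gm20532 over 3014 bases of the same strand and those of Agpat2 over 64 bases of the opposite strand, while exons of Eng overlap those of Fpgs over 61 bases of the opposite strand. The counting of reads in such stretches is not given in the sources used here, so the Cdh5, Egfl7 and Eng values carry this uncertainty; Gm20532 and Gm29682 themselves had 0 counts.

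Levels of different genes were compared only per length, in the FPKM that the authors deposited (fragments scaled for the length of the transcript and the depth of the library). In young aorta Pecam1 led with 31.8 ± 3.95 FPKM (SD, n = 3), followed by Eng with 15.9 ± 1.19 and Esam with 13.5 ± 0.206. The next 6 genes lay close together, from Cldn5 at 8.77 ± 5.58 FPKM through Cdh5, Vwf, Egfl7 and Tie1 to Tek at 6.13 ± 1.20 FPKM. Emcn was the lowest with 1.38 ± 0.391 FPKM. Only the steps from Pecam1 to Eng, from Eng to Esam and from Tek to Emcn separated neighbours whose young ranges did not overlap. In aged aorta the order again began with Pecam1 (53.4 ± 51.5 FPKM) and Eng (19.2 ± 5.23 FPKM) and ended with Emcn (2.51 ± 0.899 FPKM), and only Egfl7 and Emcn were neighbours without overlap. Pecam1 was the highest and Emcn the lowest of the 10 in every library. Tie1 held rank 6 to 8 in 5 libraries and rank 2 in aged replicate 3.

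The balance among the identity genes was examined within each library, as log2 CPM of a gene minus the mean of the other 9. On this scale Tie1 lay between -0.39 and -0.09 in 5 libraries and at 0.50 in aged replicate 3. Eng went the other way, between 0.56 and 1.58 in 5 libraries and at 0.09 in aged replicate 3. Egfl7 was between -1.02 and -0.53 in the other libraries and at -1.34 in aged replicate 3. The heights within that library were thus unequal. On this scale Pecam1, Tie1 and Tek in aged replicate 3 lay above the range of their other 5 libraries, and Eng, Egfl7 and Esam below it. Cdh5, Vwf, Cldn5 and Emcn lay within theirs. Cldn5 split the young libraries instead, at -1.04 in young replicate 1 and at -2.39 and -2.25 in the others. Emcn was between -2.75 and -2.28 in young aorta and at -1.51 and -1.73 in aged replicates 1 and 2, but at -2.48 in aged replicate 3, so its separation by age in CPM was not seen relative to the other 9 genes in that library. Cdh5 held its place best, within -0.22 and 0.31.

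**Figure D3:**
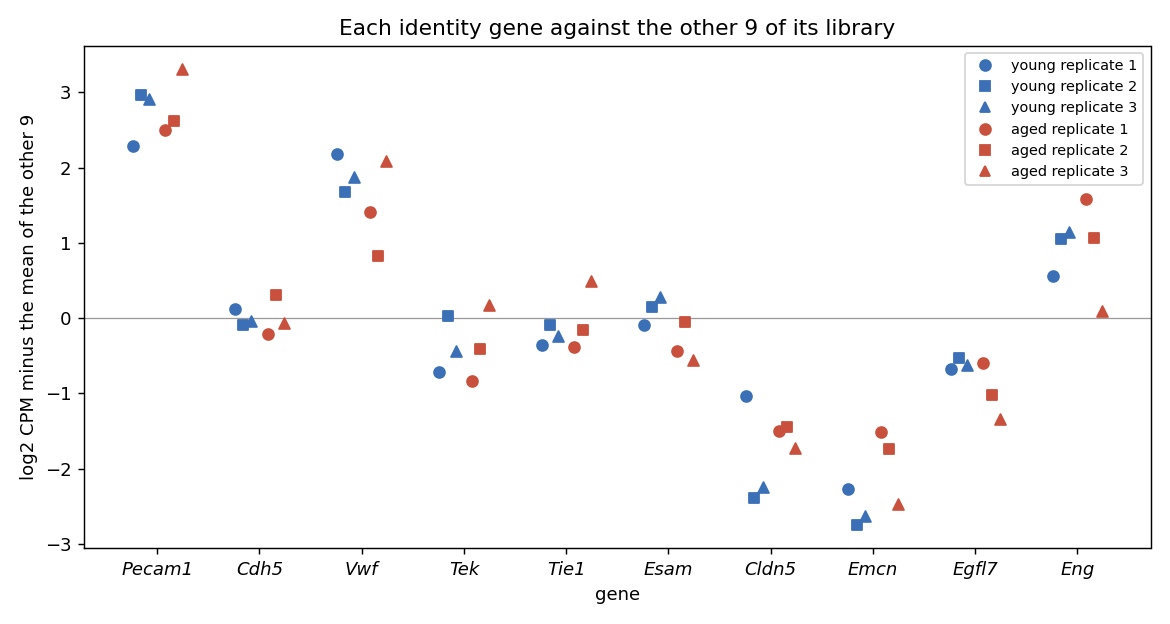
Log2 CPM of each identity gene minus the mean log2 CPM of the other 9 genes in the same library (vertical axis), with 1 point for each library. In aged replicate 3 (red triangles) Tie1 was at 0.50 and Eng at 0.09, outside the range of their other 5 libraries.

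To see whether the height of aged replicate 3 extended beyond the 10 genes, 30 further genes with endothelial-restricted expression were read from a list written by hand. All 30 were tested and 29 had a log2 fold change above 0. By adjusted p edgeR called 0 of them, while DESeq2 called S1pr1. At an unadjusted p under 0.05 there were 8 with higher aged values and 0 with lower, beside 5.56% and 4.82% of all genes. Of the 30 genes 28 were highest in aged replicate 3, and 20 of them by at least 1.5-fold. Icam2, Nos3, Mmrn2, Erg, Kdr and Robo4 were named after their values were seen. Icam2, an adhesion molecule, was 5.08 times the next library, at 58.7 CPM against 7.93 to 11.6. Nos3, the endothelial nitric oxide synthase, was at 151 CPM against 24.9 to 37.5, and Mmrn2, a matrix protein of endothelium, was at 123 CPM against 19.2 to 27.7.

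Not every endothelial gene was high in that library. Erg, the ETS factor of endothelium, was at 54.8 CPM in aged replicate 3 and between 45.7 and 52.8 CPM in the other 5. Kdr, the main VEGF receptor of endothelial cells, was at 33.4 CPM against 9.41 to 29.3, and Robo4 and Rhoj were not at their highest there. S1pr1, the sphingosine-1-phosphate receptor that supports the barrier, was at 17.8, 15.8 and 16.6 CPM in young and 24.2, 34.6 and 88.2 CPM in aged aorta. Procr, the endothelial receptor of protein C, was at 4.85, 9.20 and 8.60 CPM in young and 14.8, 12.2 and 37.7 CPM in aged aorta, also without overlap (log2 fold change 1.51, edgeR adjusted p 0.390). Cd34, a sialomucin shared with fibroblasts and progenitor cells, was high in aged replicate 1 (301 CPM) as well as in aged replicate 3 (323 CPM) and lay between 71.7 and 91.3 CPM in the other libraries. The S1pr1 groups did not overlap, its log2 fold change was 1.55 (SE 0.45) and its adjusted p was 0.382 by edgeR. In the list of arterial endothelium 7 of 12 genes were highest in aged replicate 3, 5 of them by at least 1.5-fold, and 0 were called. Notch4, a Notch receptor of endothelium, was between 4.48 and 5.21 CPM in 5 libraries and at 16.6 CPM in aged replicate 3, and Jag1, a Notch ligand that smooth muscle makes too, overlapped between the ages (log2 fold change -0.42, edgeR adjusted p 0.625). Efnb2, the ephrin that marks arteries, was at 78.5, 57.5 and 62.1 CPM in young and 38.2, 30.5 and 45.5 CPM in aged aorta, without overlap (log2 fold change -0.79, SE 0.21, edgeR adjusted p 0.377).

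**Figure D4:**
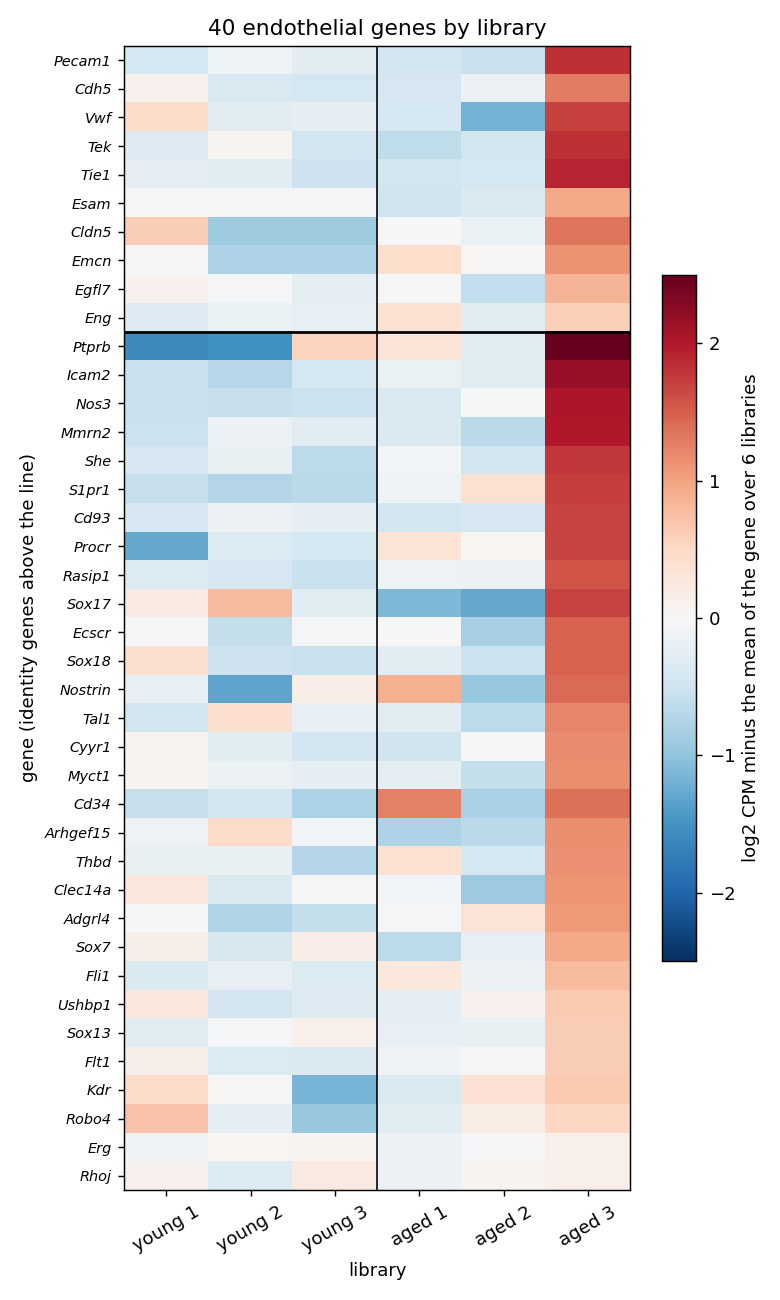
Log2 CPM of 40 endothelial genes minus the mean of each gene over the 6 libraries (colour scale, red above and blue below the mean), with genes in the vertical direction and libraries in the horizontal one. The identity genes are above the black line; the column of aged replicate 3 is red for nearly all genes and pale for Erg and Rhoj at the foot.

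A search over the 10959 genes that averaged 5 CPM or more gave those that ran most nearly in parallel with the mean log2 CPM of the 10 identity genes, measured by the SD of the difference over the 6 libraries. The closest was Afap1l2, an adaptor of actin and SRC, with an SD of 0.0973, followed by Ifngr1, the interferon-γ receptor chain (0.142), and Myct1, a membrane protein of endothelium (0.152). Arap3, Ece1, Jcad, Rhpn2 and Notch1 came next, with SDs between 0.159 and 0.195, beside a median of 0.738 over all candidates. Notch1 was between 17.4 and 19.5 CPM in 5 libraries and at 64.3 CPM in aged replicate 3. All of these genes were highest in aged replicate 3, so the likeness rests mostly on 1 library.

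Genes of other cell types were read beside the identity genes, and their part in the result was not tested. The summed level of the identity genes was 624, 577 and 535 CPM in young and 537, 451 and 1955 CPM in aged aorta, so aged replicate 3 held over 3 times the sum of any other library. The 12 smooth muscle genes summed to between 36303 and 45400.5 CPM in young and to between 32287 and 39296 CPM in aged aorta, with the lowest sum in aged replicate 3. Of these 12 genes 0 were highest there, and 4 had an unadjusted p under 0.05 with lower aged values (4.82% of all genes). The log2 fold changes were -0.44 for Myh11, -0.61 for Smtn and -0.54 for Lmod1, which encode proteins of the contractile apparatus (edgeR adjusted p 0.474, 0.443 and 0.415). Acta2, the most abundant gene of the list, was at -0.19 (edgeR adjusted p 0.760), and its groups overlapped. The median of the 12 genes was -0.17, with 10 log2 fold changes below 0 and 2 above. The 12 fibroblast genes summed to between 8359 and 10054 CPM in young and to between 6116 and 16964 CPM in aged aorta, highest in aged replicate 1, and 0 were highest in aged replicate 3. Of these genes 7 had an unadjusted p under 0.05 with higher aged values (5.56% of all genes), 10 had a log2 fold change above 0 and the median was 1.32, beside 0.71 for the identity genes. Dpt, a matrix protein, and Pdgfra, a growth factor receptor of fibroblasts, were at 1.65 and 1.31 on that scale (edgeR adjusted p 0.377 and 0.382), while the collagens Col3a1 and Col1a2, which carried much of the sum, were at -0.28 and -0.05.

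The 15 leukocyte genes summed to between 69.6 and 93.2 CPM in young and to 304, 106 and 230 CPM in aged aorta, with 9 of the 14 tested genes at an unadjusted p under 0.05 and higher in aged, beside 5.56% of all genes. Their median log2 fold change was 1.33, with C1qb at 1.70, Mrc1 at 1.38 and Itgam at 2.85, all of them genes of myeloid cells (edgeR adjusted p 0.377, 0.317 and 0.306). Of the 14 tested genes 3 were highest in aged replicate 3, 0 of them by 1.5-fold, beside 15.1% and 3.17% of all genes. The T-cell gene Cd3e had 0 counts in 3 libraries. Platelet genes, among them receptor subunits that bind von Willebrand factor, summed to between 24.7 and 75.3 CPM in young and to 25.2, 32.9 and 66.6 CPM in aged aorta, so aged replicate 3 lay inside the young range. The groups of Pf4, Ppbp, Clec1b and Gp5 overlapped, with adjusted p of 0.628 or above by edgeR. The 7 red cell genes summed to 431 to 673 CPM in young and to 643, 392 and 878 CPM in aged aorta. Of the 6 that were tested, 5 were highest in aged replicate 3 but 0 by 1.5-fold, beside 15.1% and 3.17% of all genes. The globin genes Hbb-bs, Hba-a1 and Hbb-bt had log2 fold changes between 0.11 and 0.27. The 12 adipocyte genes summed to between 1191 and 2989 CPM in young and to between 1219 and 5226 CPM in aged aorta, highest in aged replicate 2, and Fabp4, Plin4 and Car3 overlapped between the ages (edgeR adjusted p of 0.630 or above). No list of another cell type had any gene called by adjusted p in edgeR with all 6 libraries, while DESeq2 called 9 of their genes.

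**Figure D5:**
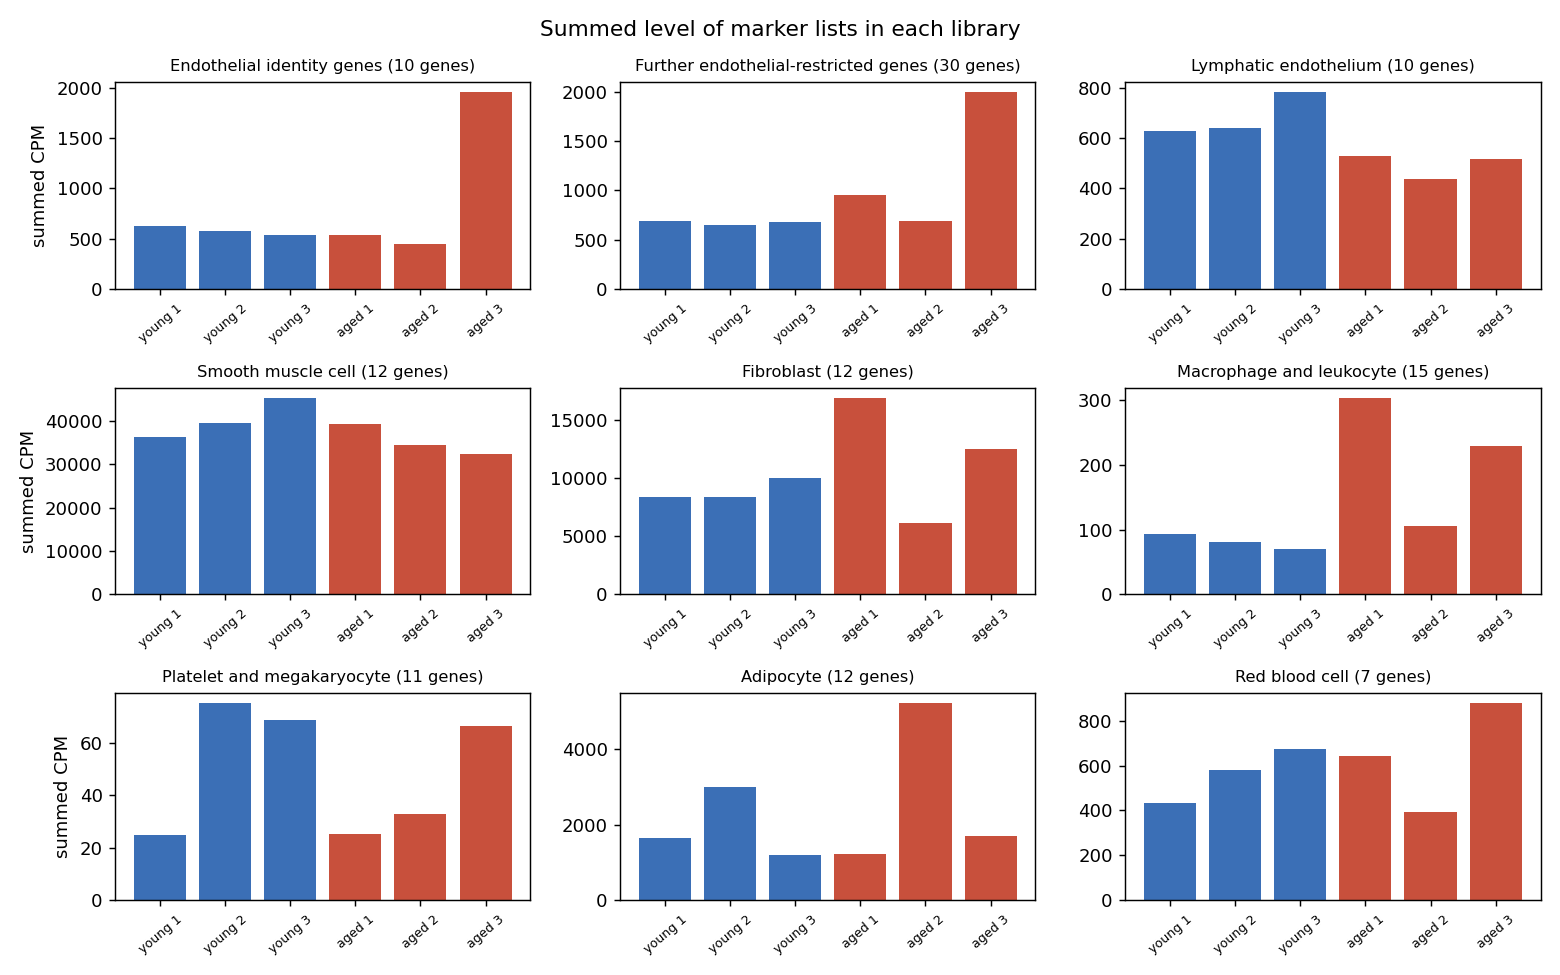
Summed CPM of the genes of each marker list (vertical axis, from 0, a separate scale for each list) in each of the 6 libraries, young in blue and aged in red, with 1 bar for each library and no error bar. The bar of aged replicate 3 stands at 1955 CPM for the identity genes, while it is the lowest of the 6 for smooth muscle cells.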

How the data were processed

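RNA was sequenced from aorta of 3 young and 3 aged mice, grouped by the age in the labels, with 1 library for each mouse. The authors deposited counts of reads per gene and FPKM for the same libraries; the submitters' processing notes name mm10, and the aligner, counter and strand setting are not given in the sources used here. Columns of unmapped samples numbered 0.

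The members and lists were chosen with earlier results of these data known. Counts were fitted with edgeR 4.0.16 in R 4.3.3 (filterByExpr with a minimum count of 10 and a total of 15, TMM, quasi-likelihood test without covariates), with Benjamini-Hochberg adjustment over all 16612 genes and a threshold of 0.05. Standard errors were taken as the fold change over the square root of F. The code of the fit was run on simulated counts with the same dispersion for every gene. No simulated library deviated as a whole, so that run says nothing about a library such as aged replicate 3. DESeq2 1.42.0 and limma 3.58.1 (log2 FPKM plus 1 or 0.1) were alternatives, with RLE size factors, no filter, at least 10 counts in every library, a replicate block, libraries left out and mitochondrial genes removed. CPM are TMM-scaled; intervals are not given, and SDs cover differences between mice. Genes were named by a rule: the identity genes, from each list the 2 most abundant and the 2 with the smallest p, and the 8 most nearly parallel genes; others are stated to be chosen later. Coordinates are from GENCODE M21 on GRCm38, the build of mm10, and sequences from RefSeq. Figures were drawn with matplotlib 3.10.9.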

Additional observations from a re-analysis of the deposited data

Results flagged for a closer look

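Groups of 3 libraries were too small to test for an outlying library, so all 6 libraries of both ages were pooled, and the gap between the highest library and the next was divided by the whole range. In a group of 6, a share above 0.625 was taken as far from the others. How often chance gives such a share in these data is not known. Both ages were pooled, and the share of all genes above this limit was not counted. The limit therefore serves as a description and gives no test of whether a library is outlying. Aged replicate 3 was the far library each time. The share was 0.947 for Tie1, 0.916 for Pecam1, 0.863 for Tek and 0.800 for Cdh5. It was 0.745 for Esam, 0.671 for Vwf and 0.632 for Egfl7. Cldn5, Emcn and Eng did not reach it. The summed CPM of the 10 identity genes gave 0.885 and that of the 30 further endothelial genes 0.775. These values are not independent, since the genes were read in the same library. On the log2 scale 5 of the 10 identity genes were above the limit, against 7 in CPM.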

How the results depend on the processing

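No identity gene was called under any of the 15 alternatives, and the smallest adjusted p of any was 0.103. Of 150 values of these genes under the alternatives, 136 kept the sign and 14 reversed. With 1 library left out, the log2 fold changes lay between -0.23 and 1.37 for Pecam1, -0.056 and 0.95 for Cdh5, -0.79 and 0.98 for Vwf, -0.32 and 1.32 for Tek, -0.13 and 1.48 for Tie1, -0.41 and 0.46 for Esam, and -0.23 and 0.53 for Egfl7, and each of these lowest values was the one without aged replicate 3. The other reversals were Vwf at -0.019 with the replicate block, Vwf at -0.10, Esam at -0.15 and Egfl7 at -0.067 with limma on FPKM plus 1, and -0.17, -0.17 and -0.089 for the same genes with a pseudocount of 0.1. On these FPKM scales the median of all genes shifted to -0.12 and -0.19; the cause of the reversals was not tested. The median of the identity genes, 0.71, lay between -0.18 (without aged replicate 3) and 0.99 (without aged replicate 2) with 1 library left out. It was 0.46 with the replicate block and 0.26 with limma on FPKM with either pseudocount, where Pecam1 was at 0.52 and 0.33. Without young replicate 1 and aged replicate 2 together the median was 1.27, 0 genes were called and all 10 fold changes were above 0. Of the 10, 3 had an unadjusted p under 0.05 by edgeR, as did 2766 of all 16774 genes tested in that fit. Over all genes edgeR called 0, against 338 of 16612 by DESeq2 and 110 of 17147 without aged replicate 2. It called between 0 and 110 with 1 library left out. In the further endothelial lists, 122 genes in all, DESeq2 called 7 (Angpt4, Lyve1, Pdpn, Plvap, Rbp7, S1pr1 and Tmem100). Without aged replicate 2 edgeR called 5 (Angpt4, Cd34, Pdpn, Rbp7 and Tmem100), with 0 to 5 when 1 library was left out. In lists of other cell types, 67 genes in all, each of these called 9, a larger share than in the endothelial lists. Those of DESeq2 were C1qa, C1qb, Cd163, Csf1r, Dpt, Itgam, Mrc1, Pcolce and Pdgfra. Those of edgeR without aged replicate 2 were C1qa, Csf1r, Dcn, Dpt, Mrc1, Pcolce, Pdgfra, Pi16 and Serpinf1. Leaving out 1 library gave 0 to 9. Same-numbered mice of both ages deviated together with correlations of 0.079, 0.117 and 0.096, and the replicate numbers were taken as names alone. The replicate block called 0 genes, with a lowest adjusted p of 0.330. Depth limits little here, as no identity gene had under 216 counts.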

Other observations

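Lists of 2 further endothelial subtypes were read apart from the identity genes. With all 6 libraries edgeR called 0 of their genes by adjusted p, while DESeq2 called Rbp7, Plvap, Lyve1 and Pdpn. Of 13 genes of capillary and venous endothelium, 11 had a log2 fold change above 0, with a median of 0.74, and 4 had an unadjusted p under 0.05 with higher aged values, beside 5.56% of all genes. The most abundant of them overlapped between the ages, with Aqp1, a water channel, at a log2 fold change of -0.06 (edgeR adjusted p 0.960) and Cd36, a fatty acid transporter shared with adipocytes and macrophages, at 0.55 (edgeR adjusted p 0.725). Rbp7, a retinol-binding protein of microvascular endothelium and adipocytes, was at 1.94, 1.70 and 1.57 CPM in young and 9.51, 7.58 and 10.5 CPM in aged aorta. All aged libraries were well above all young ones, and the log2 fold change was 2.40 (SE 0.25), with an adjusted p of 0.189 by edgeR, and no gene tested had a lower one. Plvap, which forms the diaphragms of fenestrae, was at 18.5, 16.0 and 16.1 CPM in young and 35.6, 22.3 and 47.5 CPM in aged aorta, also without overlap (log2 fold change 1.06, SE 0.27, edgeR adjusted p 0.377). Both were among the genes that DESeq2 called. Of the 13 genes, 9 were highest in aged replicate 3, 3 of them by at least 1.5-fold, beside 15.1% and 3.17% of all genes. Unlike Pecam1 or Tie1, Rbp7 and Plvap had their aged values in aged replicates 1 and 2 above the young range as well, as Emcn did.

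Of 10 genes of lymphatic endothelium 9 had a log2 fold change above 0, with a median of 1.19. At an unadjusted p under 0.05 edgeR gave 3 higher in aged and 1, Itga9, lower, beside 5.56% and 4.82% of all genes. Highest in aged replicate 3 were 7 of the 10, 4 of them by at least 1.5-fold, beside 15.1% and 3.17% of all genes. Lyve1, the hyaluronan receptor of lymphatic vessels that some macrophages carry too, was at 11.2, 8.19 and 5.68 CPM in young and 25.3, 10.8 and 32.3 CPM in aged aorta, with aged replicate 2 inside the young range. Pdpn, the podoplanin of lymphatic endothelium and of fibroblasts, was at 6.19, 6.32 and 3.82 CPM in young and 22.4, 6.41 and 26.1 CPM in aged aorta, with an adjusted p of 0.382 by edgeR. Prox1, the factor that defines lymphatic identity, was at most 1.14 CPM in any library, and its highest value was in young replicate 1. Itga9, an integrin also made by smooth muscle, was at 596, 611 and 767 CPM in young and 467, 409 and 422 CPM in aged aorta, so it carried most of the summed level of this list. Macrophage genes ran beside Lyve1, with C1qa at 17.6, 10.95 and 11.3 CPM in young and 63.7, 14.8 and 42.0 CPM in aged aorta; their part in the Lyve1 values was not tested.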
